A study of Mus musculus with 13 samples.

Results

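The genes described here sense and mend DNA damage. They are 40 listed genes of strand-break sensing, checkpoint signalling and the main repair pathways, followed in mouse hearts after doxorubicin. A listed gene was measured where its platform symbol, current or older, matched the list and a probe was detected (detection p under 0.05) on 3 or more of the 13 arrays, and 33 of the 40 met that rule. These 33 are set against all 10410 genes that met it. Hearts came from male C57BL/6 mice aged 8 to 10 weeks, and total RNA of each heart was hybridised as biotinylated cRNA to an Illumina expression BeadChip. In 3 mice the soluble activin receptor fusion protein sAcvR2B-Fc, a trap for activins and related ligands, was injected 48 hours before doxorubicin (called pre-treated hearts below). Another 5 mice had doxorubicin alone and 5 control mice had PBS. All injections were intraperitoneal, and the hearts were collected 20 hours after that last injection. Mice with sAcvR2B-Fc but no doxorubicin are not among the labelled groups, so its effect without the drug was not analysed here.

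Doxorubicin is an anthracycline that intercalates into DNA and traps topoisomerase II on it, which leaves broken strands, and it also oxidises bases. Breaks are found by the Mre11-Rad50-Nbn complex and signalled through the kinases Atm, Atr, Chek1 and Chek2. Mending then follows separate routes: end joining or homologous recombination for breaks through both strands, base excision and ligation for damaged bases and nicks, nucleotide excision for bulky lesions, and mismatch repair for replication errors. Much of this machinery is kept ready as protein and is set going by phosphorylation and recruitment. A small number of repair genes (Ddb2, Xpc, Polk and Rrm2b among them) are described as transcriptional targets of p53 in human or mouse cells. Whether p53 acts on each of them in the mouse heart was not tested here. Most heart muscle cells of an adult mouse do not divide, so recombination and other S-phase repair genes are known to be low in this tissue.

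The median raw signal per array was 101.5 to 136.3 and each array detected 15989 to 17939 of 45281 probes. No 2 arrays were identical, and 7 of 8 cardiomyocyte markers were detected on all arrays. The remaining marker, Tnnt2, was detected on 0 arrays, so a gene below detection here need not be absent from the heart. The 2 deposited tables name the arrays differently: for 5 of the 13 samples both tables give the same array, for 8 they do not, and for 6 of these the other array belongs to another group. The names of the non-normalized table are used here. Under them Cdkn1a, the p53-induced cell cycle inhibitor, had a log2 signal of 9.92 to 11.13 in pre-treated hearts, 9.66 to 10.89 in doxorubicin hearts and 7.16 to 8.59 in controls, so both doxorubicin groups lay above the controls. Under the series matrix names the ranges were 8.28 to 10.97, 8.28 to 10.89 and 7.16 to 11.13, and they overlapped. Along the first principal component of all genes (28.9% of the variance) 5 arrays, drawn from every group, stood apart at 15.0 to 23.2, with the other 8 at -18.4 to 0.0922. These were pre-treated replicates 2 and 3, doxorubicin replicate 5 and control replicates 4 and 5. They are the 5 arrays with the lowest median raw signal, 101.5 to 111.4 beside 113.7 to 136.3 on the other 8, and the labels name no batch. In whole-tissue RNA, fewer cells of a type and less RNA per cell cannot be told apart.

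Doxorubicin against control asks whether the heart changes the transcripts of its repair machinery within a day of the drug. None of the 33 repair genes passed the test (limma, Benjamini-Hochberg adjusted p under 0.05 over all 10410 genes), where 0.240% of all genes did, and the smallest adjusted p among them was 0.222. At an unadjusted p under 0.05 there were 5 repair genes, 15.2% of them, beside 12.2% of all genes: 4 were lower, as were 6.27% of all genes, and 1 was higher, as were 5.98%. The uracil-removing glycosylase Ung, the mismatch-recognition protein Msh6, the nick-sealing ligase Lig3 and the break sensor Parp1 had lower means after doxorubicin, and the excision nuclease Ercc5 a higher one. Of the 33, 17 had a higher mean and 16 a lower one, with a median log2 difference of 0.0040 beside -0.0043 for all genes. Taken 1 gene at a time, every 95% interval lay inside 2-fold in either direction, as did 95.9% of intervals over all genes. Inside 1.5-fold lay 28 of 33, beside 8080 of all 10410 genes. The differences spanned -0.39 to 0.29 on the log2 scale, and 31 of the 33 fell between the 5th and 95th percentiles of all genes (-0.33 and 0.35).

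Pre-treated against doxorubicin hearts asks whether the ligand trap alters repair gene transcripts under the drug. No repair gene passed the test, where 0.0865% of all genes did, and none reached an unadjusted p under 0.05, where 11.3% of all genes did. The smallest adjusted p was 0.450 (limma), that of Lig3. The differences ran from -0.37 for Polk, a polymerase that copies past damaged bases, to 0.26 for Lig3, with 19 genes higher (57.6%, beside 53.5% of all genes) and 14 lower and a median of 0.056 beside 0.018 for all genes. All 33 intervals lay inside 2-fold (93.4% over all genes) and 29 inside 1.5-fold (6952 of all 10410 genes). In none of the 33 were the groups free of overlap, as they were in 6.98% of all genes. Leaving out pre-treated replicate 2 turned the median to -0.0377.

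Pre-treated against control hearts, which share the control arrays with the first comparison, gave no call among the repair genes, where 1.23% of all genes were called. The smallest adjusted p was 0.180 (limma). At an unadjusted p under 0.05 stood 2 repair genes, the helicase Ercc2 and the nuclease Ercc5, both higher, which is 6.06% beside 18.3% of all genes (10.1% higher). The differences spanned -0.30 for the replicative ligase Lig1 to 0.47 for Ercc2. All 33 intervals lay inside 2-fold, beside 91.8% over all genes, and 26 inside 1.5-fold, beside 6500 of all 10410 genes.

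**Figure D1:**
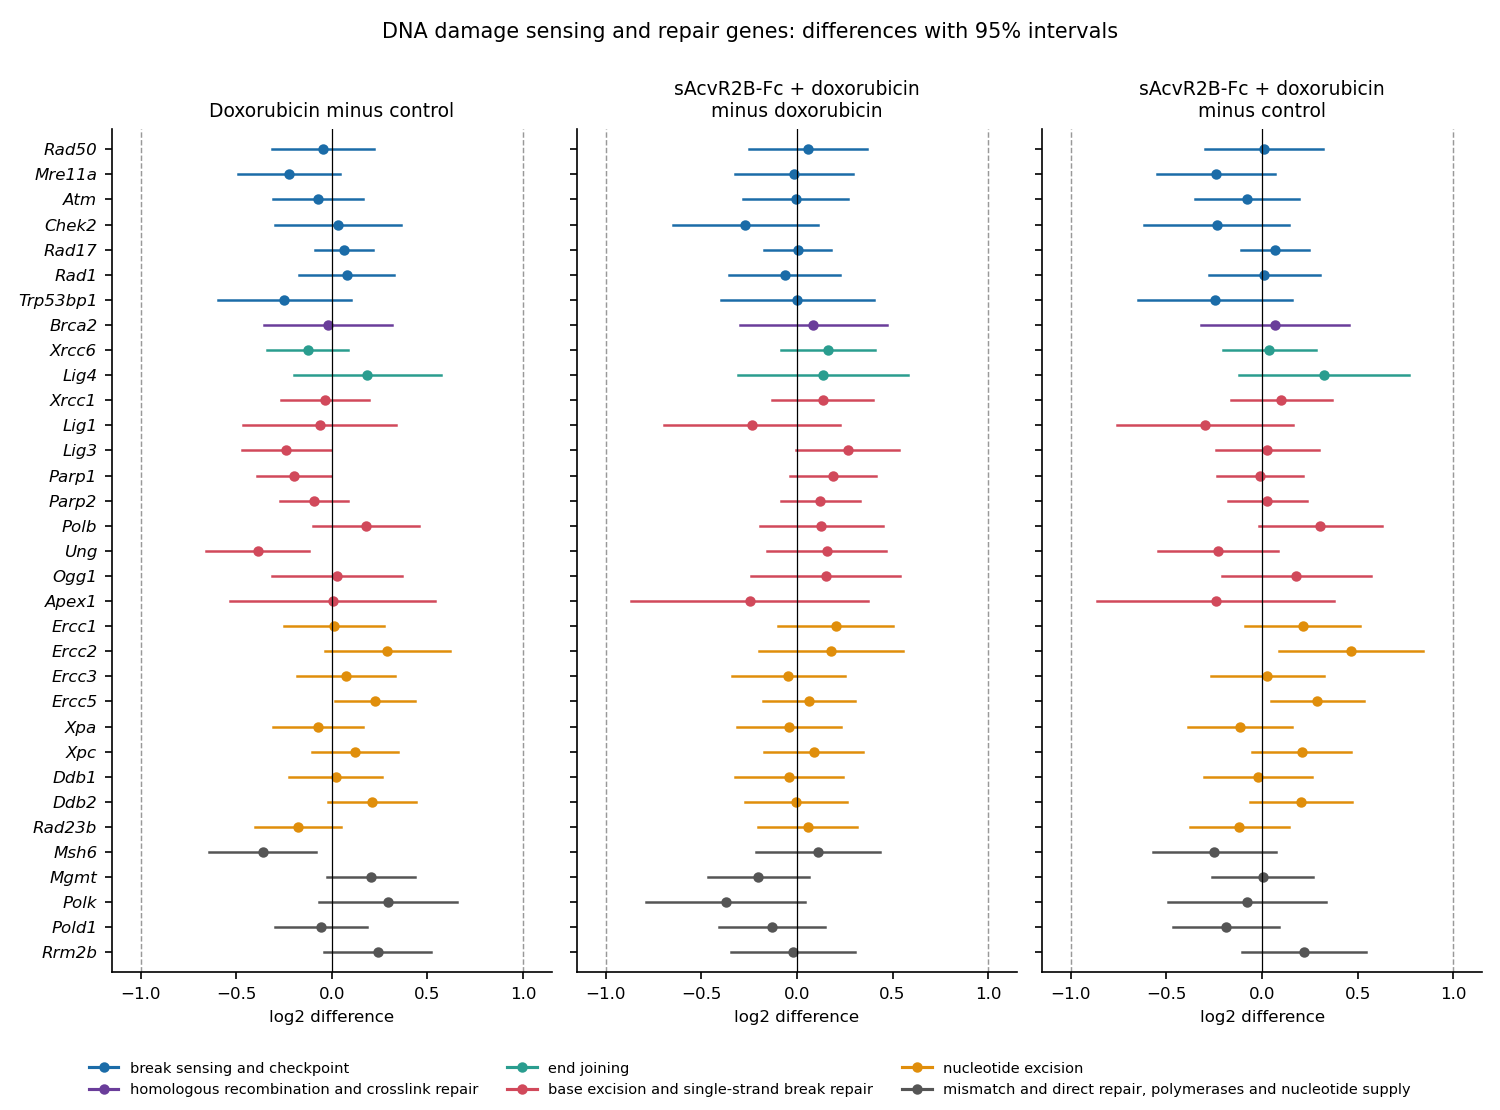
Log2 difference (point) and 95% interval (line) of each of the 33 measured repair genes in the 3 comparisons, coloured by repair route, with dashed lines at a 2-fold difference. All intervals lie between the dashed lines, and most cross 0.

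Among the 10 genes of break sensing and checkpoint signalling, Nbn, Atr and Chek1 were below detection on all 13 arrays and 7 were measured. After doxorubicin 3 had higher and 4 had lower means than in controls, with a median log2 difference of -0.048. Mre11a, the nuclease of the break-sensing complex, had a log2 signal of 6.91, 7.22 and 6.91 in pre-treated hearts, 7.02, 7.28, 7.07, 6.77 and 7.00 in doxorubicin hearts and 7.04, 7.20, 7.11, 7.32 and 7.59 in controls. The control with the highest value stood above every treated heart, but the groups overlapped. The Mre11a difference was -0.22 ± 0.12 (SE) for doxorubicin against control (adjusted p = 0.491) and -0.24 ± 0.14 for pre-treated against control (adjusted p = 0.398). Chek2, the kinase that passes the Atm signal on to p53, had values of 5.71, 5.63 and 5.36 in pre-treated hearts, 5.66, 6.15, 5.92, 5.72 and 5.74 in doxorubicin hearts and 5.47, 6.25, 5.99, 5.81 and 5.50 in controls. It differed by -0.27 ± 0.18 between pre-treated and doxorubicin hearts (adjusted p = 0.567), with doxorubicin replicate 1 inside the pre-treated range. Rad17, which loads the checkpoint clamp that Rad1 belongs to, had the tightest interval of all 33 genes, -0.090 to 0.22 for doxorubicin against control. Atm itself differed by -0.071 and Rad50, the partner of Mre11a, by -0.048 in that comparison.

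Both break-joining routes were thinly measured. For recombination and crosslink repair Brca1 and Fancd2 were below detection on every array and Brca2, a mediator of homologous recombination, was the 1 gene measured, at -0.020 for doxorubicin against control. For end joining the scaffold Xrcc4 and the Ku subunit Xrcc5 were below detection on every array. The other Ku subunit, Xrcc6, had a log2 signal of 10.60, 10.92 and 10.97 in pre-treated hearts, 10.70, 10.65, 10.56, 10.57 and 10.86 in doxorubicin hearts and 10.68, 10.85, 10.67, 10.89 and 10.89 in controls. The 5 arrays that stood apart on the first principal component held the highest Xrcc6 values in each group, 10.86 to 10.97. Pre-treated hearts differed from doxorubicin hearts by 0.16 ± 0.11 (adjusted p = 0.592), and by 0.0072 with that component as a covariate. On that component pre-treated hearts lay at 0.0922 to 23.2 and doxorubicin replicates 1 to 4 at -14.2 to -8.41. Here and below, adjusting for that component can therefore also take away part of a group difference. Lig4, the ligase of end joining, was detected on 10 of the 13 arrays and differed by 0.19 for doxorubicin against control and 0.32 for pre-treated against control, both inside the spread (adjusted p = 0.732 and 0.428).

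All 9 genes of base excision and single-strand break repair were measured, and 3 of them had an unadjusted p under 0.05 after doxorubicin, where 12.2% of all genes did. Of the 9, 6 had lower means in doxorubicin hearts than in controls (median -0.064; 51.0% of all genes were lower), and 7 had higher means in pre-treated than in doxorubicin hearts (median 0.13; 53.5% of all genes were higher); the doxorubicin arrays are shared by both comparisons. Ung, which cuts uracil out of DNA, had a log2 signal of 9.51, 9.98 and 9.70 in pre-treated hearts, 9.46, 9.93, 9.30, 9.66 and 9.51 in doxorubicin hearts and 10.14, 9.93, 9.99, 9.94 and 9.80 in controls. Only doxorubicin replicate 2 among the doxorubicin hearts reached the control range, and the means were 9.57 ± 0.24 and 9.96 ± 0.12 (SD, n = 5 each). The Ung difference was -0.39 ± 0.13 with a 95% interval of -0.66 to -0.12 (adjusted p = 0.222), a 1.31-fold lower signal, and an exact two-sided permutation test over the 10 samples gave p = 0.0238. Without doxorubicin replicate 2 it was -0.48 with an adjusted p of 0.0434, the 1 setting in which any repair gene was called.

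Parp1, which binds broken strands and marks the site with poly(ADP-ribose), had values of 10.29, 10.54 and 10.60 in pre-treated hearts, 10.23, 10.18, 10.27, 10.33 and 10.44 in doxorubicin hearts and 10.34, 10.46, 10.45, 10.59 and 10.59 in controls. Of the doxorubicin hearts, 4 lay below every control, and the difference was -0.20 ± 0.09 (adjusted p = 0.405; exact permutation p = 0.0159). Lig3, the ligase that seals nicks with Xrcc1, had values of 8.26, 8.55 and 8.61 in pre-treated hearts, 8.37, 8.24, 8.18, 8.19 and 8.08 in doxorubicin hearts and 8.51, 8.37, 8.15, 8.60 and 8.61 in controls. Doxorubicin hearts were the low group here, at -0.24 ± 0.11 against control (adjusted p = 0.398), and pre-treated hearts differed from them by 0.26 ± 0.13 (adjusted p = 0.450; exact permutation p = 0.0357), with 1 pre-treated heart inside the doxorubicin range. With the first principal component as a covariate the pre-treated minus doxorubicin difference was 0.137 for Lig3 and 0.0481 for Parp1. Doxorubicin minus control was -0.218 and -0.176 with that covariate. Since pre-treated and doxorubicin hearts mostly lie apart on this component, the covariate cannot separate it from treatment.

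The remaining base excision genes differed less from their spread. Polb, the gap-filling polymerase, had values of 7.59, 7.24 and 6.99 in pre-treated hearts, 7.22, 7.23, 7.12, 7.29 and 6.86 in doxorubicin hearts and 6.90, 7.03, 7.26, 6.82 and 6.82 in controls. Its pre-treated minus control difference of 0.30 ± 0.15 (adjusted p = 0.298) was 0.146 to 0.447 when single arrays were left out and 0.508 with the first principal component as a covariate (adjusted p = 0.0767). Parp2, the relative of Parp1, had values of 9.79, 10.02 and 10.02 in pre-treated hearts, 9.85, 9.80, 9.80, 9.73 and 9.95 in doxorubicin hearts and 9.89, 10.05, 9.81, 9.95 and 9.89 in controls, and its differences were -0.095, 0.12 and 0.026 for doxorubicin against control, pre-treated against doxorubicin and pre-treated against control. The scaffold Xrcc1 differed by -0.035 for doxorubicin against control. Ogg1, the glycosylase for oxidised guanine, differed by 0.027 and Apex1, which cuts the strand at the emptied site, by 0.0040, but Ogg1 was detected on 9 arrays, Apex1 on 12 and Lig1 on 10, and the Apex1 interval was the widest of the 33 (-0.53 to 0.54).

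Nucleotide excision was the route with the most positive differences: 7 of its 9 genes had higher means in doxorubicin hearts than in controls (median 0.072) and 6 of 9 in pre-treated hearts than in controls (median 0.20), while 49.0% and 50.1% of all genes were higher in these comparisons. Ercc5, the nuclease that cuts on the 3′ side of the lesion, had a log2 signal of 8.98, 9.50 and 9.40 in pre-treated hearts, 9.37, 9.16, 9.17, 9.22 and 9.21 in doxorubicin hearts and 8.98, 8.95, 9.07, 9.00 and 9.02 in controls. Every doxorubicin heart exceeded every control, the 1 repair gene of 33 (3.03%) with no overlap in that comparison, where 2.85% of all genes had none (1.47% with the doxorubicin hearts higher). The means were 9.23 ± 0.08 and 9.00 ± 0.04 (SD, n = 5 each), a difference of 0.22 ± 0.10 (adjusted p = 0.375), and the exact permutation p of 0.00794 is the smallest that 5 against 5 can give. Pre-treated against control differed by 0.29 ± 0.11 (adjusted p = 0.196), with pre-treated replicate 1 at the level of the controls.

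Ercc2, the helicase of transcription factor IIH that opens the damaged stretch, had values of 6.24, 5.99 and 6.09 in pre-treated hearts, 6.16, 5.82, 6.43, 5.43 and 5.81 in doxorubicin hearts and 5.63, 5.52, 5.61, 5.81 and 5.62 in controls. All 3 pre-treated hearts exceeded all 5 controls, as in 8.06% of all genes tested (13.9% had no overlap in either direction), whereas the doxorubicin hearts reached both above and below the controls. The differences were 0.47 ± 0.18 for pre-treated against control (adjusted p = 0.180; exact permutation p = 0.0179, the smallest that 3 against 5 can give) and 0.29 ± 0.15 for doxorubicin against control (adjusted p = 0.467). Ercc1, a subunit of the nuclease that cuts on the other side, had values of 8.56, 8.57 and 8.79 in pre-treated hearts, 8.43, 8.08, 8.52, 8.62 and 8.52 in doxorubicin hearts and 8.26, 8.21, 8.41, 8.62 and 8.62 in controls. Its pre-treated minus doxorubicin difference of 0.20 ± 0.14 (adjusted p = 0.591) was 0.0318 with the first principal component as a covariate. The helicase Ercc3 and the damage-binding proteins Xpa and Ddb1 differed by 0.072, -0.071 and 0.020 for doxorubicin against control, and Rad23b, the partner of Xpc, by -0.18.

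The 4 of the 33 repair genes taken here as p53 targets all had positive differences for doxorubicin against control, as did 49.0% of all genes. None passed the test. These 4 are not a full list of p53-responsive repair genes, and they were chosen with earlier results of these data known. Ddb2, which finds ultraviolet-type lesions in chromatin, had a log2 signal of 7.02, 7.11 and 6.84 in pre-treated hearts, 7.18, 6.92, 7.23, 6.86 and 6.78 in doxorubicin hearts and 6.74, 6.63, 6.81, 6.79 and 6.95 in controls. Xpc, which recognises the distorted helix, had values of 8.55, 8.49 and 8.45 in pre-treated hearts, 8.59, 8.28, 8.47, 8.27 and 8.43 in doxorubicin hearts and 8.32, 8.21, 8.01, 8.53 and 8.38 in controls. Both overlapped between all groups, and the doxorubicin minus control differences were 0.21 ± 0.11 for Ddb2 (adjusted p = 0.454) and 0.12 ± 0.10 for Xpc (adjusted p = 0.699). Rrm2b, the ribonucleotide reductase subunit that supplies nucleotides for repair outside S phase, had values of 9.72, 10.08 and 9.80 in pre-treated hearts, 9.99, 9.51, 10.02, 10.02 and 9.89 in doxorubicin hearts and 9.57, 9.40, 9.59, 9.98 and 9.69 in controls. Doxorubicin replicate 2 lay below the other doxorubicin hearts and control replicate 4 among them, and the difference was 0.24 ± 0.13 (adjusted p = 0.481). Polk had values of 5.93, 6.50 and 6.08 in pre-treated hearts, 6.73, 6.13, 6.94, 6.34 and 6.58 in doxorubicin hearts and 6.23, 6.62, 6.33, 6.02 and 6.05 in controls. It differed by 0.29 ± 0.17 for doxorubicin against control (adjusted p = 0.506), by -0.37 ± 0.19 for pre-treated against doxorubicin (adjusted p = 0.481) and by -0.079 for pre-treated against control.

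Of the mismatch, direct repair and polymerase genes, Msh6 stood furthest from the controls. Msh6 had a log2 signal of 8.69, 8.81 and 8.98 in pre-treated hearts, 8.69, 9.10, 8.40, 8.50 and 8.89 in doxorubicin hearts and 8.97, 9.31, 9.02, 8.99 and 9.09 in controls. Again doxorubicin replicate 2 was the 1 doxorubicin heart within the control range. The difference from controls was -0.36 ± 0.13 in doxorubicin hearts (adjusted p = 0.263; exact permutation p = 0.0476) and -0.25 ± 0.15 in pre-treated hearts (adjusted p = 0.398; exact permutation p = 0.0357). Without doxorubicin replicate 2 the doxorubicin minus control value was -0.456 (adjusted p = 0.0554). Mgmt, which lifts alkyl groups off guanine, had values of 9.39, 9.42 and 9.25 in pre-treated hearts, 9.63, 9.53, 9.69, 9.62 and 9.31 in doxorubicin hearts and 9.53, 9.40, 9.52, 9.23 and 9.08 in controls. Its difference of -0.20 ± 0.12 between pre-treated and doxorubicin hearts (adjusted p = 0.539) was -0.0188 with the first principal component as a covariate. The replicative polymerase subunit Pold1 differed by -0.058 for doxorubicin against control. The genes named here were chosen mostly for small p-values in these same comparisons, so the exact permutation p-values describe how their groups lie and add no support. Of 51 exact permutation tests only those with p under 0.05 are printed. After Benjamini-Hochberg adjustment over the 51 the smallest exact permutation p was 0.292.

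**Figure D2:**
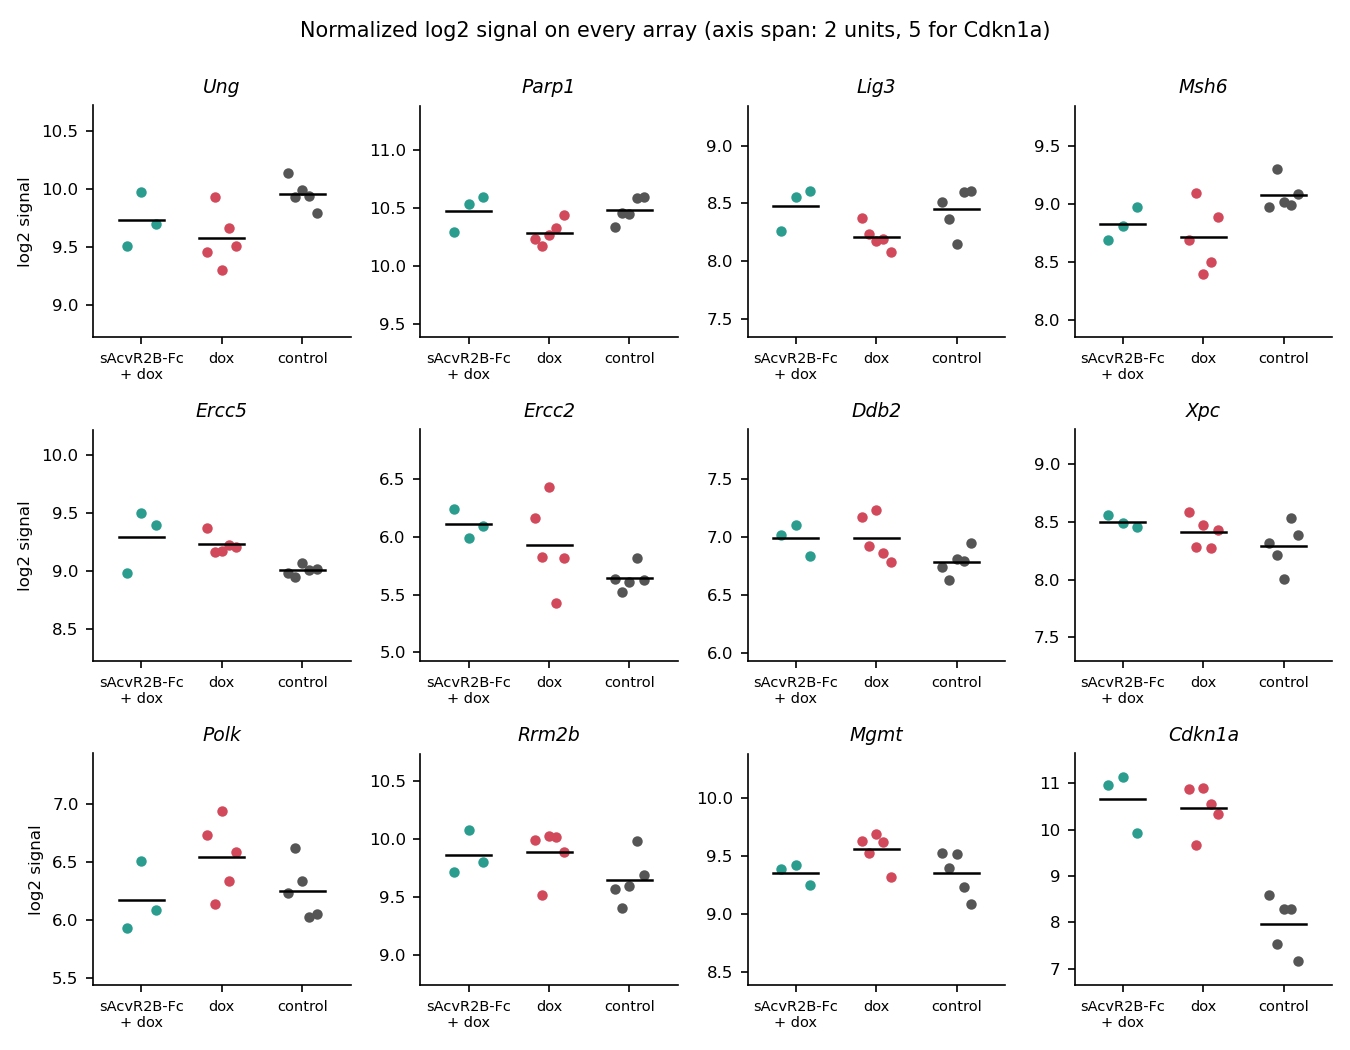
Normalized log2 signal on each array for 11 repair genes and Cdkn1a in pre-treated, doxorubicin and control hearts (points, left to right in each panel), with group means as lines; each panel spans 2 log2 units, and Cdkn1a 5. Ung and Msh6 are lower in all doxorubicin hearts but 1 than in controls and Ercc5 higher in every one, while Cdkn1a separates both doxorubicin groups from controls.

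A second or later probe was measured for 14 of the 33 genes, and 56 repair gene probes were tested in all. None was called in any comparison when each of the 18693 passing probes was tested on its own, and 6, 1 and 3 had an unadjusted p under 0.05 for doxorubicin against control, pre-treated against doxorubicin and pre-treated against control. These are 10.7%, 1.79% and 5.36% of the 56, beside 11.0%, 10.8% and 16.4% of all passing probes. All probes of a gene had the same sign in 9, 9 and 8 of the 14 genes. For doxorubicin against control both Msh6 probes gave -0.36 and -0.37, the 3 Ung probes -0.39, -0.26 and -0.28, and both Ercc5 probes 0.22 and 0.28. Probes disagreed for Trp53bp1, a scaffold that steers breaks towards end joining, whose brightest probe gave -0.25 where its others gave 0.080 and 0.32, and for Ddb2, with 0.21, 0.22 and -0.19. The Lig3 probes gave -0.24, -0.15 and 0.051 and those of Parp1 -0.20, -0.13 and -0.059. Rad23b probes spread widely on 1 side of 0, with -0.18 for the brightest and -0.45, -0.35 and -0.050 for the others.

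**Figure D3:**
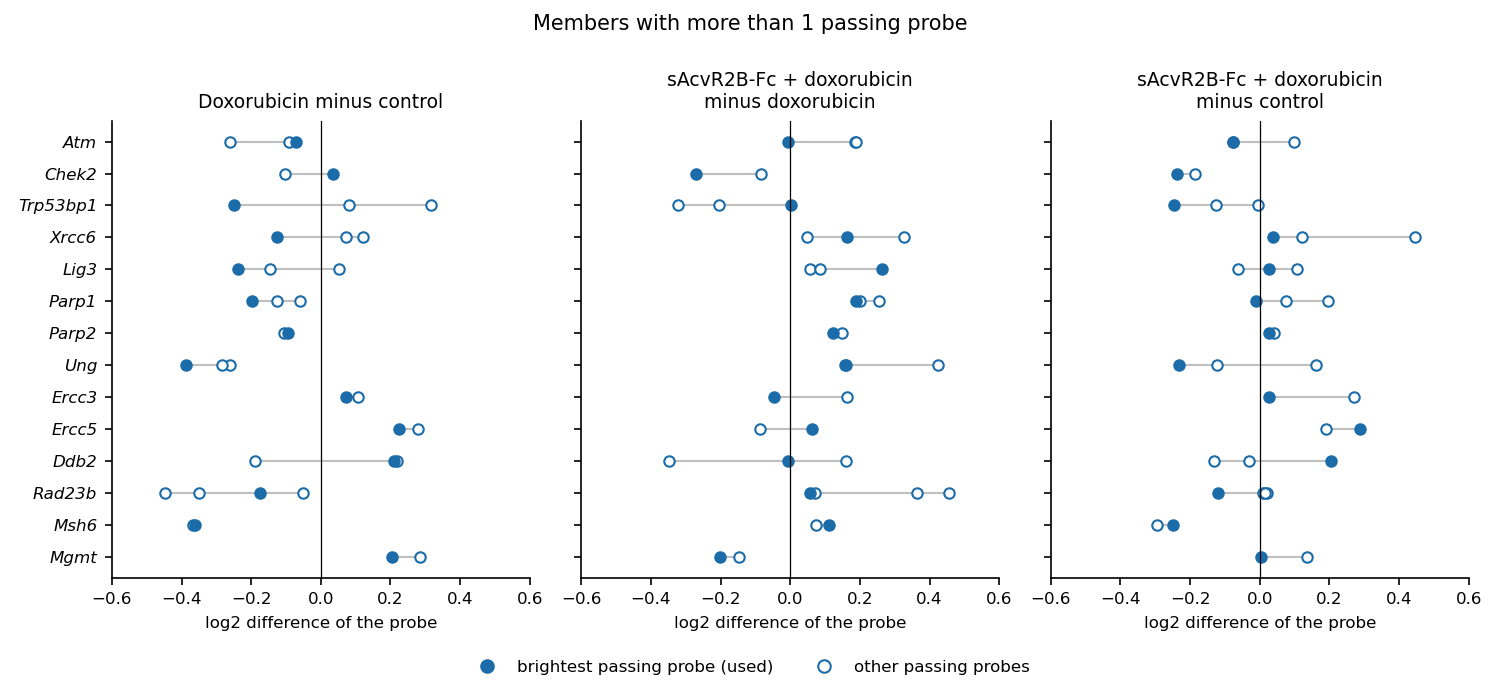
Log2 difference of every passing probe (points; filled, the brightest probe used for the gene) for the 14 repair genes with more than 1 passing probe, in the 3 comparisons. The probes of Msh6, Ung, Ercc5 and Mgmt lie on 1 side of 0 for doxorubicin minus control, whereas those of Trp53bp1, Ddb2, Xrcc6, Lig3 and Chek2 lie on both.

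The wider repair machinery was followed in a second list. Of 87 further repair genes 60 were measured, and none was called in any comparison by limma, while 7, 13 and 6 had an unadjusted p under 0.05 (11.7%, 21.7% and 10.0% of the 60, beside 12.2%, 11.3% and 18.3% of all genes) for doxorubicin against control, pre-treated against doxorubicin and pre-treated against control. After doxorubicin the smallest p-values belonged to Prkdc, the catalytic kinase subunit of end joining, at 0.50 ± 0.16 (adjusted p = 0.204), Rpa3, a subunit of the single-strand binding protein, at -0.31 ± 0.10 (adjusted p = 0.228), and then to Pms2, Ercc4, Mutyh and Pcna (0.41, -0.29, 0.41 and 0.18). Between pre-treated and doxorubicin hearts they belonged to the sliding clamp Pcna at -0.39 ± 0.09 (adjusted p = 0.208), the clamp loader subunit Rfc4 at -0.72 ± 0.23 (adjusted p = 0.339), and then to Pole, Rev1, Usp1 and Prkdc (-0.42, 0.26, -0.56 and -0.46). Between pre-treated and control hearts Rev1, a scaffold for polymerases that bypass lesions, was nearest to a call at 0.39 ± 0.10 (adjusted p = 0.0627), followed by Pole, Pold4, Mutyh, Ercc8 and Pcna (-0.44, 0.39, 0.51, -0.29 and -0.21). Of 20 S-phase and proliferation genes, which include Pcna, 11 were measured and none was called, while 3, 1 and 3 had an unadjusted p under 0.05. These are 27.3%, 9.09% and 27.3% of the 11, beside the same 12.2%, 11.3% and 18.3% of all genes. Their summed linear signal was 1036 to 1262 in pre-treated hearts, 1162 to 1333 in doxorubicin hearts and 1193 to 1260 in controls.

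Damage response genes that act outside repair were followed in the same hearts. Of 16 listed, 14 were measured, of which 1, 0 and 2 were called for doxorubicin against control, pre-treated against doxorubicin and pre-treated against control. These are 7.14%, 0% and 14.3% of the 14, beside 0.240%, 0.0865% and 1.23% of all genes. Their median log2 difference was 0.45 for doxorubicin against control and 0.44 for pre-treated against control, beside 0.0040 and 0.012 for the repair genes. Both lists were chosen with earlier results of these data known, so this contrast describes the lists and adds no support. Cdkn1a was 5.64-fold higher in doxorubicin hearts than in controls (log2 2.50 ± 0.32, adjusted p = 0.00606) and 6.52-fold higher in pre-treated hearts than in controls (2.70 ± 0.36, adjusted p = 0.00312). Phlda3, a p53-induced inhibitor of Akt signalling, was higher by 1.56 in pre-treated hearts than in controls (adjusted p = 0.0239), with 1.31 for doxorubicin against control (adjusted p = 0.0520). No gene of this list passed the test between pre-treated and doxorubicin hearts, where Cdkn1a differed by 0.21 ± 0.36 (adjusted p = 0.850). Array by array, the median over the repair genes, relative to the control mean, was -0.091 to 0.091 in pre-treated hearts, -0.050 to 0.11 in doxorubicin hearts and -0.058 to 0.029 in controls. For the damage response list the ranges were 0.27 to 0.80, -0.071 to 0.64 and -0.037 to 0.081, with doxorubicin replicate 2 at the control level.

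Marker lists of the cells a heart can hold were followed as well. Of 8 neutrophil markers, 5 were measured and 2, S100a8 and S100a9, were called in doxorubicin against control (40%, beside 0.240% of all genes). The summed linear signal of the 5 was 468 to 509 in pre-treated hearts, 367 to 891 in doxorubicin hearts and 132 to 207 in controls. None of the 8 was detected on all arrays, and 3 were detected on none. Erythroid markers (3 of 8 measured) summed to 6264 to 11454 in pre-treated hearts, 7671 to 19016 in doxorubicin hearts and 13384 to 20153 in controls. Macrophage markers (7 of 8) summed to 3360 to 5473 in pre-treated hearts, 3285 to 3901 in doxorubicin hearts and 2421 to 3766 in controls. No erythroid, macrophage, cardiomyocyte, endothelial, fibroblast or lymphocyte marker was called in any comparison by limma, but all 7 measured cardiomyocyte markers had lower means in pre-treated hearts than in controls (median -0.30, where 49.9% of all genes were lower), and the median was -0.86 for the erythroid and 0.58 for the macrophage markers in that comparison. For pre-treated against control, an unadjusted p under 0.05 was reached by 2 of 3 erythroid, 3 of 7 macrophage, 2 of 7 cardiomyocyte and 3 of 8 fibroblast markers. It was also reached by 1 of 6 endothelial and all 5 neutrophil markers, and by 18.3% of all genes. The part of such cells in the repair gene values was not tested. The summed signal of the repair genes themselves was 13626 to 15760 in pre-treated hearts, 13907 to 14767 in doxorubicin hearts and 14443 to 15427 in controls.

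**Figure D4:**
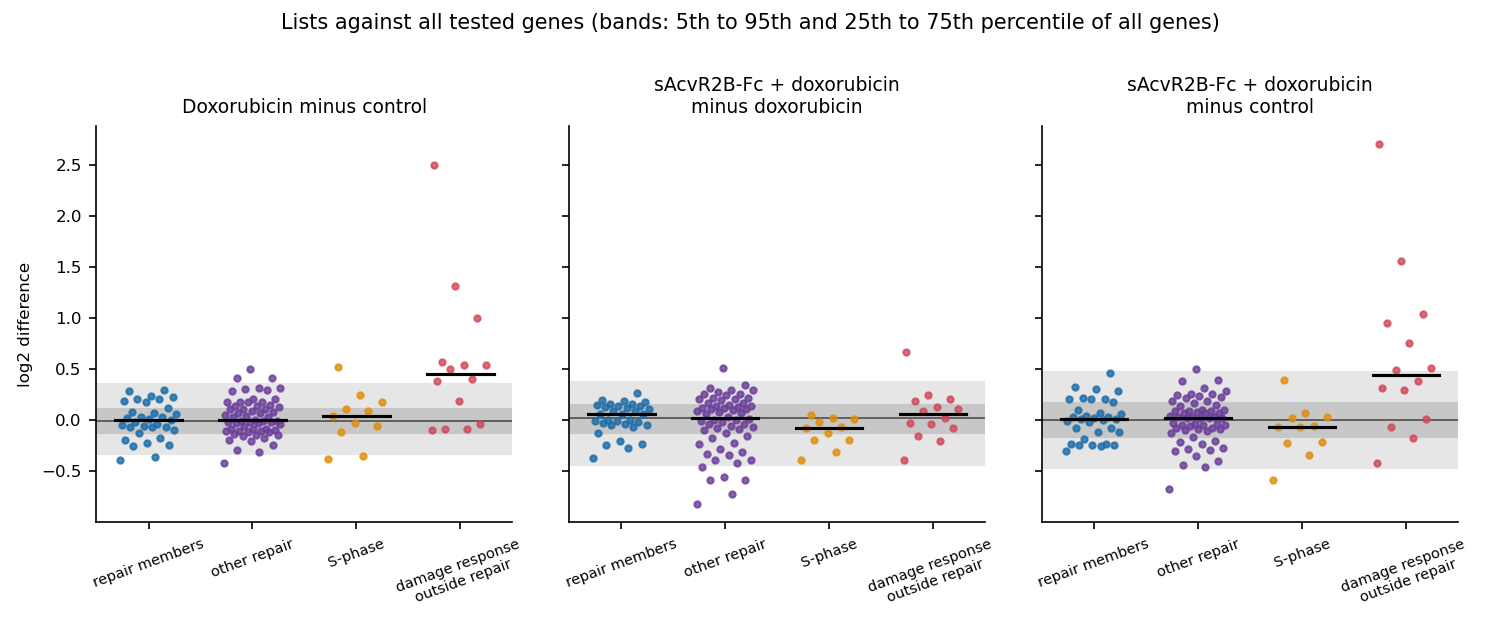
Log2 differences (points, 1 per gene) and list medians (lines) of the 33 repair genes, 60 further repair genes, 11 S-phase genes and 14 damage response genes outside repair; grey bands span the 5th to 95th and 25th to 75th percentiles of all 10410 genes. The repair medians lie near 0 in each panel, and the damage response medians at 0.45 and 0.44 against control. The lists were chosen with earlier results of these data known.

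**Figure D5:**
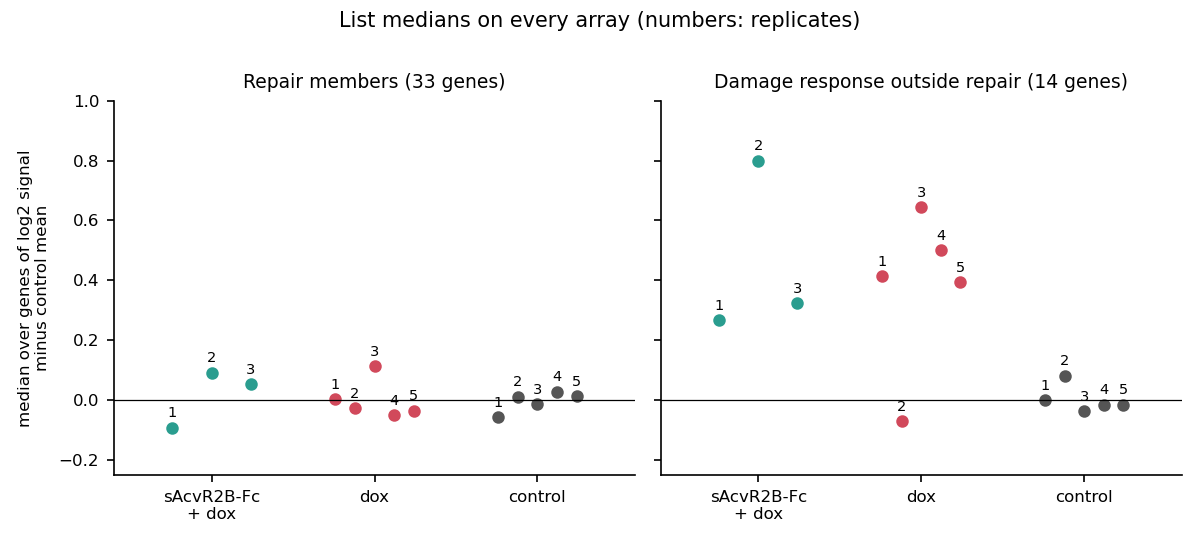
Median log2 signal of the 33 repair genes (left) and the 14 damage response genes outside repair (right) on each array, relative to the control mean, with replicate numbers. Repair medians stay between -0.091 and 0.11 in all 3 groups, while damage response medians reach 0.80 in pre-treated and 0.64 in doxorubicin hearts. Both lists were chosen with earlier results of these data known.

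Promoter sequence was looked up for the listed genes in RefSeq windows running from 250 bases before to 50 bases after a transcript start (GRCm38.p6). The most upstream window of a gene was used. Of the 40 genes 32 had a window, and 27 of these were measured here. The windows of the repair genes held a median of 23 CpG dinucleotides, beside 7 over all 27025 genes with a window, and a median GC content of 61.0% beside 52.7%. The 27025 are all genes with a window and not the 10410 measured in these hearts. Promoter values over the measured genes alone were not computed. The letters of an E2F site (TTTCCCGC, TTTGGCGC, TTTCGCGC or TTTGCCGC, either strand) occurred in 5 of the 32 (15.6%), those of Brca2, Chek2, Msh6, Pold1 and Xrcc6, and in 2.33% of all windows. CCAAT occurred on either strand in 14 (43.8%, beside 38.0% of all windows), the ETS core CCGGAAG in 7 (21.9% beside 9.14%) and TATAAA in 2 (6.25% beside 14.2%). A match is only a match of letters. The 150 bases before that transcript start are shown for the 3 repair genes with the smallest p-values in doxorubicin against control. Of these, Ung and Msh6 had lower and Ercc5 had higher means. The annotated gene range begins at base 44146948 for Ercc5 and 114130366 for Ung, so the Ercc5 stretch lies inside the gene and the Ung stretch overlaps it. The Xrcc6 window, from base 82016119, likewise lies inside a gene range that begins at 81987833. So do the Brca2 window (from 150522371, gene range from 150522297) and the Ercc1 window (from 19344821, gene range from 19344067). On the minus strand the Trp53bp1 window ends at 121271657, inside a gene range that ends at 121296354. Capitals mark CCAAT read on the opposite strand.
Ung, chr5:114130285-114130434, plus strand: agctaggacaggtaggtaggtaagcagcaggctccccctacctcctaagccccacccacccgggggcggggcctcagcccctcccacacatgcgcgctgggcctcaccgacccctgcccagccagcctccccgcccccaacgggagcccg
Msh6, chr17:87974900-87975049, plus strand: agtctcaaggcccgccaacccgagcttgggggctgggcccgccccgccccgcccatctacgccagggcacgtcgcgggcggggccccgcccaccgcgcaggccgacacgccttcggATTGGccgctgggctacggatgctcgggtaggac
Ercc5, chr1:44147594-44147743, plus strand: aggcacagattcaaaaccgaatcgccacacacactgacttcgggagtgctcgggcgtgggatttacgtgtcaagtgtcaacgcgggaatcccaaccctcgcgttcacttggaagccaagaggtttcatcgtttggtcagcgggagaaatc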

How the data were processed

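Total RNA of 13 mouse hearts was measured on Illumina BeadChips. The deposited non-normalized table holds, per the file headers, a signal intensity and a detection p-value for each probe and array, with no background subtracted. The other deposited table, a series matrix, gives intensities after further processing by the authors, with steps not given in the sources used here, and it served only in alternatives. Signals were corrected by normexp with the detection p-values, quantile-normalized and put on the log2 scale with limma 3.58.1 neqc (offset 16) in R 4.3.3, which compresses differences of dim probes. A gene needed a detection p under 0.05 on at least 3 arrays and was represented by its brightest passing probe. All 3 groups entered 1 limma fit with Benjamini-Hochberg adjustment over 10410 genes, called at an adjusted p under 0.05; errors are standard errors unless named SD.

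Of 45281 probes, 34885 had 1 gene symbol in the platform annotation, 18 had several and 10378 none. The number of arrays limits the precision, and each array was taken as 1 mouse. Values in every sample are given for the 8 repair genes with the smallest p in each comparison and for the p53 targets, 17 genes in all, and the others by role, range and count. Members and lists were chosen with earlier results of these data known. Fits were tested on simulated data. Alternatives covered filters, background, scaling, probe choice, the other table and its names, array weights, the replicate number as a block and single arrays left out. Each probe on its own, and the median raw signal and the first principal component as covariates, were added after the data were seen. The replicate numbers were not taken as pairs. Between groups, 4 of 11 pairs of the same number correlated above 0.1 (range -0.245 to 0.386). So few correlations cannot exclude a pairing.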

Additional observations from a re-analysis of the deposited data

Results flagged for a closer look

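Of 66 groups of values tested for a sample far from the others, 1 was picked out (1.52%), where chance gives about 1 in 20. In doxorubicin hearts Rrm2b, the nucleotide-supplying p53 target, had a log2 signal of 9.51 in replicate 2, against 9.89 in the next lowest and 10.02 in the highest of the 5, a gap of 0.737 of the whole range. The same heart had the highest Ung and Msh6 signals of the doxorubicin group (9.93 and 9.10) and the lowest Cdkn1a signal of that group (9.66).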

How the results depend on the processing

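No repair gene was called by limma in any comparison and setting tried, except Ung without doxorubicin replicate 2 (1 gene called, adjusted p = 0.0434). Of 1428 recomputed values of the 17 named genes 98 changed sign, 30 of them under the series matrix names. Counts over all genes moved more. For doxorubicin against control (25 called) they were 38 with detection on all arrays of a group, 43 without background correction, 45 with offset 50, 12 on series matrix values, 0 under the series matrix names on either table (164 and 178 genes at an unadjusted p under 0.05), 0 on the arrays both tables place in the same group (732 genes), 161 with array weights and 14 with the median raw signal as a covariate. For pre-treated against doxorubicin (9 called) they were 0 under the series matrix names on either table (324 and 348 genes). For pre-treated against control (128 called) they were 238 without background correction, 211 with offset 50, 78 on series matrix values, 0 under the series matrix names on either table (358 and 362 genes), 6 on the agreed arrays, 280 with array weights and 38 with the first principal component as a covariate. With the replicate number as a block, although pairing by it was not established, 4, 64 and 210 genes were called and no repair gene. The repair median for pre-treated against doxorubicin was -0.0554 and -0.0542 under the series matrix names on the 2 tables. It was -0.0715 on the arrays both tables place in the same group. The only pre-treated heart among those arrays is replicate 1, so no count of calls is given there for pre-treated hearts. The cause was not tested. Leaving out single arrays gave 3 to 332, 6 to 11 and 25 to 294 called genes, 0 to 1, 0 and 0 called repair genes, and repair medians of -0.0349 to 0.0443, -0.0377 to 0.0607 and -0.0112 to 0.0641 for doxorubicin against control, pre-treated against doxorubicin and pre-treated against control. Each array but doxorubicin replicate 5, left out alone, moved at least 1 of these gene counts by over 1.5 times. The highest counts, 332 and 294, came without doxorubicin replicate 2, and the lowest, 3 and 25, without doxorubicin replicate 1 and without control replicate 3. Under the series matrix names the doxorubicin minus control value was -0.235 for Ung, -0.105 for Msh6 and 0.0887 for Ercc5. No slide is given in the files, so a slide block was not run. Low signal limits Lig4, Lig1, Ogg1 and Apex1. For the 7 genes below detection, little transcript and a probe that fails cannot be told apart.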
